A study of Homo sapiens with 2 samples.

Results

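Receptor tyrosine kinases were examined in PC3, an established cell line derived from a metastasis of prostate cancer, after knockdown of SUB1. The receptors were EGFR, ERBB2, ERBB3, MET, AXL, IGF1R, INSR, FGFR1, EPHA2 and EPHB4. Every gene probe that carries one of these 10 names in the scanner files was taken, which gave 22 of the 41000 probes on the array. Of these, 16 were well above background by the filter and 6 were not, and each of the 10 receptors kept at least 1 probe. The rule uses gene names and no measured value.

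A receptor tyrosine kinase spans the plasma membrane, binds a ligand outside the cell and, once paired with another receptor, adds phosphate to tyrosines of its own tail and of its partner. Adaptor proteins dock on these tyrosines and pass the signal to the RAS to MAP kinase cascade and to PI3 kinase and AKT. PC3 cells are known to carry several such receptors, EGFR, MET and AXL among them. SUB1, also called PC4, is a nuclear protein that binds single-stranded DNA and acts as a coactivator of RNA polymerase II. The comparison asks which receptor transcripts differ when SUB1 is lowered.

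Cells were transfected with Non-T siRNA, a non-targeting duplex, or with 1 of 2 duplexes against SUB1, named SUB1 siRNA 1 and SUB1 siRNA 2. The transfection was repeated after a day, and RNA was taken 72 h after the first transfection. Each of 2 two-colour Agilent arrays on 1 slide held Non-T siRNA RNA in Cy3 and RNA of 1 SUB1 duplex in Cy5, so that each duplex has 1 array and no biological replicate. The dyes were not swapped, and a dye bias therefore cannot be told apart from a difference between the treatments. Whether the Non-T siRNA RNA on both arrays came from the same cells is not stated in the sources used here.

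The target was lowered on both arrays. Relative to Non-T siRNA, the log2 ratios of its 4 probes lay between -3.75 and -1.81 (siRNA 1) and between -3.50 and -1.57 (siRNA 2). On the array of siRNA 1, the median intensity was 128 for Cy3 and 116 for Cy5 over gene spots, beside 86.5 and 63.2 over negative control spots. The epithelial keratins KRT8 and KRT18 were bright in Non-T siRNA cells (log2 signals of 11.34 and 13.39 on the siRNA 1 array), and so were VIM (15.16) and CD44 (11.63), which PC3 cells are known to express. The log2 ratios of VIM were -0.28 and -0.48 and those of CD44 -0.83 and -1.04 with siRNA 1 and siRNA 2, the latter past 2-fold, with an adjusted p of 0.112 for CD44 (limma). KLK3, which encodes prostate-specific antigen and is known to be low in PC3, was bright with 1 of its 3 probes. That probe, A_24_P108401, matches KLK3 splice variants and had a log2 signal of 14.30 in Non-T siRNA cells of the siRNA 1 array, whereas the other probes of KLK3 had 6.40 and 5.98. Among markers of other cell types, PTPRC and DES did not pass the filter, while PECAM1, COL1A1 and DCN did, with log2 signals between 6.64 and 7.83 over all channels.

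The precision of a ratio can be given only as technical error. Over 209 probes spotted 10 times, the log2 ratio varied among spots with a median SD of 0.078 (siRNA 1 array) and 0.074 (siRNA 2 array). The log2 Cy3 signals of Non-T siRNA cells differed between the arrays with an SD of 0.12 over 25673 probes, and the Cy5 signals of the SUB1 siRNA cells with an SD of 0.30. Signals are log2 intensities after normalization and are set against each other only within a probe. In bulk RNA, fewer cells with a transcript and less of it per cell cannot be told apart.

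Of the 16 receptor probes above background, 4 had an unadjusted p under 0.05 over both arrays (limma), as did 5455 of all 25673 probes. None of the receptor probes had an adjusted p under 0.05. The promoter stretches of these 4 receptors are printed here, because SUB1 is a factor of transcription initiation. Each is the 250 bases before the transcription start in RefSeq (GRCh38.p14), in 5' to 3' order of the gene. Capitals mark GC boxes, the letters GGGCGG on either strand (CCGCCC on the other), which are bound by SP1-type factors. EPHA2 lies on the minus strand at chr1:16156070-16156319, AXL on the plus strand at chr19:41218973-41219222, EGFR on the plus strand at chr7:55018767-55019016 and ERBB2 on the plus strand at chr17:39687844-39688093.
EPHA2: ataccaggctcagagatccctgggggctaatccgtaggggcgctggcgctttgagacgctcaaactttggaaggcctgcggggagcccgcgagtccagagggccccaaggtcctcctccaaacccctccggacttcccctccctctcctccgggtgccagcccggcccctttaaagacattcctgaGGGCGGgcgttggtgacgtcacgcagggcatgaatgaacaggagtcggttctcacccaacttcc
AXL: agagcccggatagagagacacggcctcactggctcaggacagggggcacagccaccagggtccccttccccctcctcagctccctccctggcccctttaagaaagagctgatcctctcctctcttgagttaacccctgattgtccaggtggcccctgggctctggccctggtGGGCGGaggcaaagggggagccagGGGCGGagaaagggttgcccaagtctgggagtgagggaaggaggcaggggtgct
EGFR: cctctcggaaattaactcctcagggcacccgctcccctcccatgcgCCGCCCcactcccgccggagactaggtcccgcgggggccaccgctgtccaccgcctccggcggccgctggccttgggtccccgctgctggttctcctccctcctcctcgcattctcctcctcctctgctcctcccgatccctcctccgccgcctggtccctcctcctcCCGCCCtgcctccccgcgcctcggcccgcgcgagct
ERBB2: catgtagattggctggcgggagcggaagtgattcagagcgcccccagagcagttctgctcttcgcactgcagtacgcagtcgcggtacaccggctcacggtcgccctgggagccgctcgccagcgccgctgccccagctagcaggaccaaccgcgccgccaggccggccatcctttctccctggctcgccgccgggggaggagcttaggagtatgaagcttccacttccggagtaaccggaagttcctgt

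Of the printed stretches, that of EPHA2 held 1 GC box, those of AXL and EGFR 2 each, and that of ERBB2 none. No TATAAA was found in these 4 stretches. AXL and EGFR each have a further RefSeq entry that is not printed, with 0 GC boxes in both, and that of EGFR (chr7:55109589-55109838) held TATAAA 2 times. RefSeq stretches were at hand for 8 of the 10 receptors, with 10 entries in all, of which 7 held a GC box. Among receptors not printed, EPHB4 and INSR held 4 GC boxes each and IGF1R and MET 2 each. Of 35116 human promoter stretches of the same length, 42.6% held a GC box and 10.7% held TATAAA. A match is a description of the letters and not a binding site, and the ratios were not tested against it.

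Over the 16 receptor probes above background, small differences in both directions were the rule. With siRNA 1, 1 probe was past 2-fold, that of EPHA2, and with siRNA 2 none was. Past 2-fold in either direction were 0.752% of all 25673 probes with siRNA 1 and 1.45% with siRNA 2. At 1.5-fold, EPHA2 and AXL were lower with siRNA 1 and FGFR1, by 1 probe, was lower with siRNA 2, and no receptor probe was higher on either array. Of all probes, 2.92% were at least 1.5-fold lower and 2.21% at least 1.5-fold higher with siRNA 1, and 3.94% and 3.19% with siRNA 2. The median log2 ratio of the receptor probes was -0.07 with siRNA 1 and -0.12 with siRNA 2, beside 0.01 and 0.02 for all probes. Of the receptor probes, 11 had a negative ratio with siRNA 1 and 12 with siRNA 2, and of all probes 47.5% and 47.6%. Among the 12 receptor probes with both channels well above background on both arrays, 9 and 10 were negative. The counts over 16 probes depended on the processing. With median centring of the arrays instead of loess they were 7 and 8, while the median of all probes moved to 0.11 and 0.10. In the authors' table of loess-normalized ratios they were 8 and 10, with a median of all probes of 0.02 on each array. Without background correction they were 9 and 12, and with Feature Extraction's processed signals 10 and 11.

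In limma's test of the mean ratio of both arrays against 0, with Benjamini-Hochberg adjustment over all 25673 probes, no receptor probe passed an adjusted p of 0.05. The share of all probes that did was 0.0117%, which is 3 probes, all of SUB1. The lowest adjusted p of a receptor was 0.105, for AXL, and 4 receptor probes had an unadjusted p under 0.05, those of AXL, EPHA2, ERBB2 and EGFR. Over all probes, 5455 had one. The test takes the duplexes as the samples of the knockdown and leaves out the spread of the control. Its standard errors and p-values rest on the spread of the 2 ratios of a probe. limma moderates that spread towards one estimated from all probes, with a prior df of 3.64. Variation between replicate cultures is not measured.

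**Figure D1:**
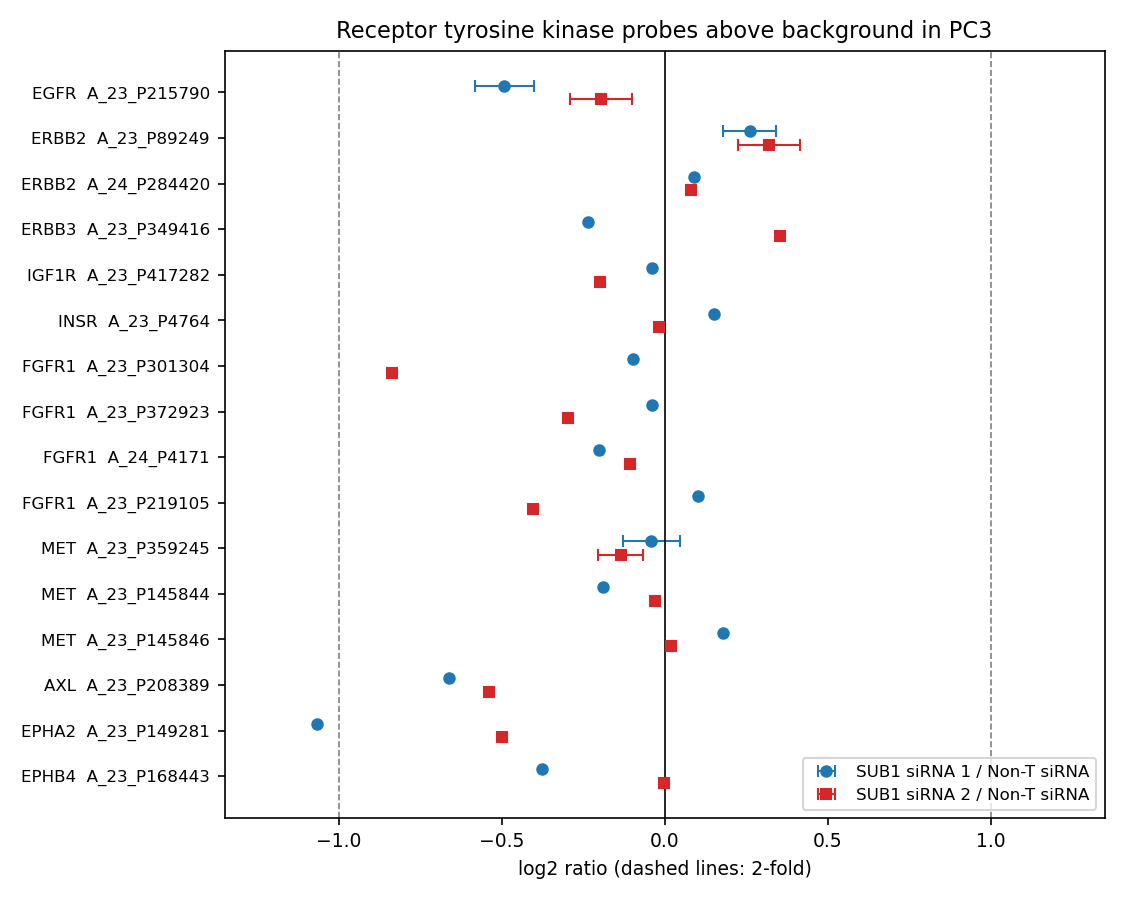
Log2 ratio relative to Non-T siRNA (x axis) for each of the 16 receptor probes above background (y axis, gene and probe name), with siRNA 1 as blue circles and siRNA 2 as red squares. Bars are the SD among the spots of the 3 probes spotted 10 times, other probes have 1 spot, and only EPHA2 with siRNA 1 lies beyond the dashed line at 2-fold.

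Of the EGF receptor family, EGFR had lower and ERBB2 higher signal on both arrays. EGFR, the receptor of EGF, TGF-alpha, amphiregulin and HB-EGF, is measured by A_23_P215790 (NM_005228; hg18 chr7:55242335-55242394). Its log2 signal was 7.82 in Non-T siRNA and 7.33 in SUB1 siRNA 1 cells, and 7.80 in Non-T siRNA and 7.60 in SUB1 siRNA 2 cells. Both Non-T siRNA signals of EGFR were above both SUB1 siRNA signals. The log2 ratio of EGFR with siRNA 1 was -0.49, with an SD of 0.090 over 9 spots, and that with siRNA 2 was -0.19, with an SD of 0.096 over 10 spots. Each of these is larger than the SD among spots, and 71.1% and 87.4% of the Non-T siRNA signal was left. Over both arrays the mean for EGFR was -0.34 with a standard error of 0.12 and an adjusted p of 0.206 (limma). Of all probes, 4.32% had a lower ratio than EGFR with siRNA 1 and 21.3% with siRNA 2. EGFR was lower under all 8 settings, between -0.74 and -0.39 with siRNA 1, while with siRNA 2 its ratio lay between -0.28 and -0.08. Here and below, the settings include the main one. Those that change only the filter or keep outlier spots repeat its ratio or nearly so, and add little.

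ERBB2, also known as HER2, has no ligand of its own and is the preferred partner of the other family members. Its probe A_23_P89249 (NM_001005862; hg18 chr17:35138355-35138414) had log2 signals of 9.37 in Non-T siRNA and 9.63 in SUB1 siRNA 1 cells, and of 9.42 and 9.74 on the siRNA 2 array. The log2 ratio with siRNA 1 was 0.26, with an SD of 0.082 over 10 spots, and that with siRNA 2 was 0.32, with an SD of 0.096, a 1.20-fold and a 1.25-fold higher signal. The mean was 0.29 with a standard error of 0.094 and an adjusted p of 0.196 (limma). Over the 8 settings the ratio stayed positive, from 0.25 to 0.47 for siRNA 1 and from 0.29 to 0.53 for siRNA 2, highest with median centring. The other ERBB2 probe, A_24_P284420, lies 18.2 kb upstream in the gene and was near background. Its Non-T siRNA signal was not well above background on either array, with measured log2 ratios of 0.09 and 0.08. Against the lowest signal well above background, SUB1 siRNA 1 was 1.03-fold higher, and no fold can be given for siRNA 2. With Feature Extraction's processed signals the siRNA 1 ratio was -0.10, so this is no minimum.

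ERBB3, which binds neuregulins and signals to PI3 kinase through its partner since its own kinase is weak, was dim. Of its 3 probes only A_23_P349416 (NM_001982; hg18 chr12:54782427-54782486), the probe nearest the 3' end, passed the filter. The log2 signal was 6.61 in Non-T siRNA and 6.38 in SUB1 siRNA 1 cells, a log2 ratio of -0.23. On the siRNA 2 array it was 6.41 in Non-T siRNA and 6.76 in SUB1 siRNA 2 cells, a log2 ratio of 0.35. The Non-T siRNA signal on that array was not well above background, so that the 1.28-fold higher signal with siRNA 2 is no exact fold. In the authors' table the siRNA 2 ratio was smaller, at 0.11. The ratios of ERBB3 thus had opposite signs, with an adjusted p of 0.863 for their mean (limma). Their sizes moved over 7 settings between -0.77 and -0.18 for siRNA 1 and between 0.11 and 0.58 for siRNA 2. The Non-T siRNA signal itself was lower by 0.21 on the siRNA 2 array, which is more than the SD of 0.12 over all probes. The other probes of ERBB3, A_24_P919096 and A_24_P918970, were built on the GenBank clones U88360 and U88357 and did not pass the filter.

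**Figure D2:**
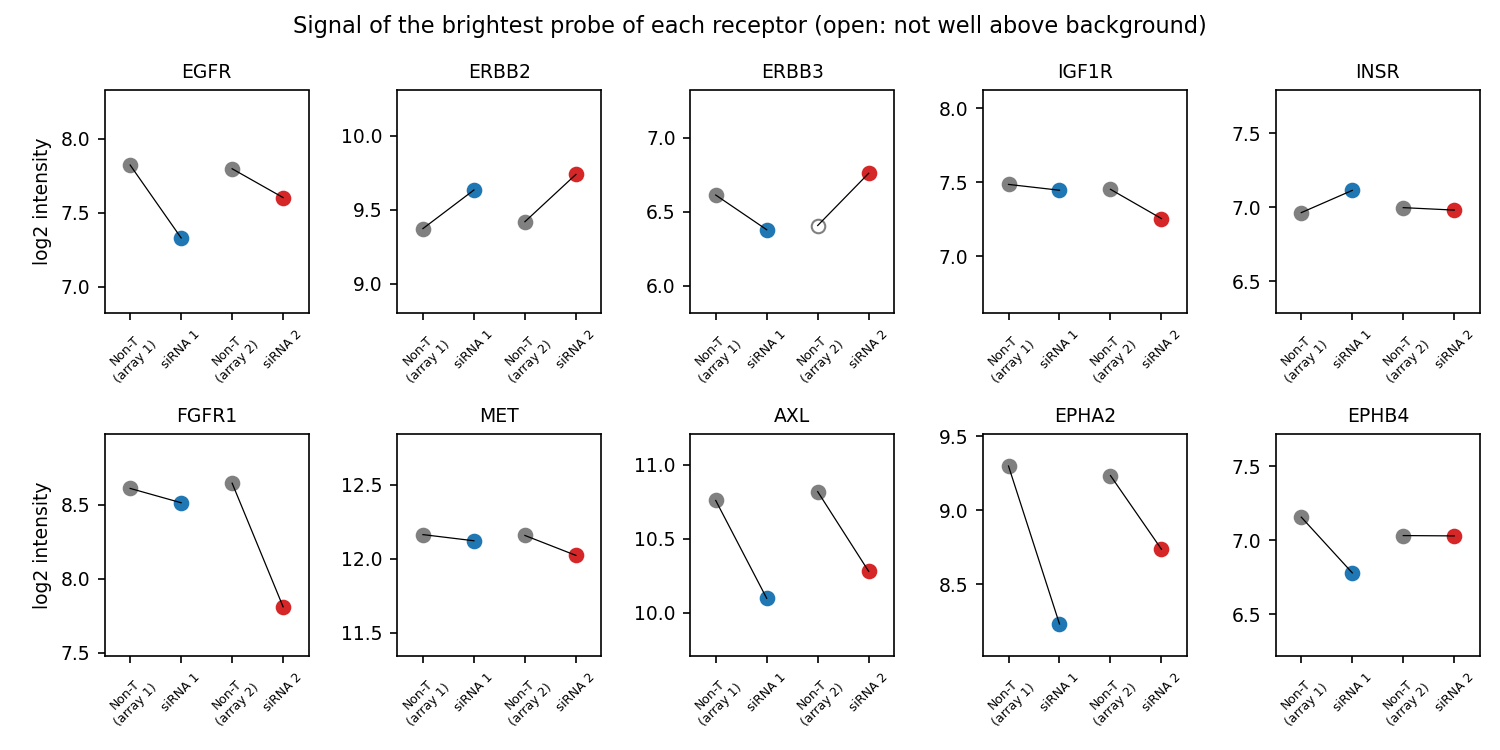
Normalized log2 intensity (y axis, each panel spanning the same 1.5 log2 units) of the brightest probe of each receptor in the 4 channels (x axis), Non-T siRNA in grey, SUB1 siRNA 1 in blue and SUB1 siRNA 2 in red, 1 array per duplex. Lines join the channels of 1 array, the open circle marks a signal not well above background, and the AXL and EPHA2 signals lie below Non-T siRNA with both duplexes.

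The insulin-type receptors had small ratios. IGF1R, the receptor of IGF-1 and IGF-2, had 1 of 3 probes above background, A_23_P417282 (NM_000875; hg18 chr15:97324889-97324948). Its log2 signal was 7.49 in Non-T siRNA and 7.45 in SUB1 siRNA 1 cells, and 7.45 in Non-T siRNA and 7.26 in SUB1 siRNA 2 cells. The log2 ratios were -0.04 and -0.20, and the sign with siRNA 1 turned to 0.04 without background correction and 0.06 with median centring. Over the 8 settings the siRNA 2 ratio lay between -0.35, in the authors' table, and -0.11. The mean had an adjusted p of 0.539 (limma). The probe A_23_P205986, spotted 10 times and 6.20 kb upstream of it, did not pass the filter.

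INSR, the insulin receptor, has 1 probe, A_23_P4764 (NM_000208; hg18 chr19:7067899-7067958). Its log2 signals were 6.96 in Non-T siRNA and 7.11 in SUB1 siRNA 1 cells, and 6.998 and 6.98 on the siRNA 2 array. The log2 ratios of INSR were 0.15 and -0.02, with a mean of 0.07, a standard error of 0.10 and an adjusted p of 0.736 (limma). Over the 8 settings INSR lay between 0.10 and 0.35 with siRNA 1 and between -0.02 and 0.12 with siRNA 2.

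FGFR1, a receptor of fibroblast growth factors, is covered by 6 probes over 44.5 kb of the gene, and these gave different ratios. The probe nearest the 3' end and the brightest of the 6, A_23_P301304 (NM_023110), had log2 signals of 8.61 in Non-T siRNA and 8.51 in SUB1 siRNA 1 cells, and of 8.64 in Non-T siRNA and 7.81 in SUB1 siRNA 2 cells. Only the SUB1 siRNA 2 signal stood apart from the other 3. The log2 ratio was -0.10 with siRNA 1 and -0.84 with siRNA 2, a 1.78-fold lower signal with siRNA 2, and the mean of -0.47 had a standard error of 0.20 and an adjusted p of 0.265 (limma). With siRNA 2, 1.57% of all probes had a lower ratio. With siRNA 1 the sign depended on the processing, at 0.07 with median centring and 0.04 in the authors' table.

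The next probe upstream, A_23_P219105, is 1.82 kb away and is labelled NM_023111. Each FGFR1 probe past the filter lists 4 RefSeq transcripts, so its label does not single out 1 transcript. Whether the 4 are the same for each probe is not given here. A_23_P219105 had log2 ratios of 0.10 with siRNA 1 and -0.40 with siRNA 2. Its SUB1 siRNA 2 signal was not well above background, so that the measured 1.32-fold lower signal is no exact fold. In the authors' table its siRNA 2 ratio was -0.33. A_24_P4171, further upstream, had -0.20 and -0.11, with a Non-T siRNA signal not well above background on the siRNA 2 array. The probe nearest the 5' end, A_23_P372923 (NM_023110), had -0.04 with siRNA 1 and -0.30 with siRNA 2. The remaining probes of FGFR1, A_23_P316447 and A_23_P315131, did not pass the filter. With siRNA 2, the probes with both channels well above background, at each end of the gene, had -0.84 and -0.30. A_23_P219105 was lower with a dim SUB1 siRNA 2 channel, and A_24_P4171 allowed no fold. With Feature Extraction's processed signals in place of normexp, the siRNA 2 ratios were larger, at -1.03 for A_23_P301304 and -0.70 for A_23_P372923. Those of A_23_P219105 (-1.82) and A_24_P4171 (-0.45) were measured with a dim channel and are no exact folds. Probes of 1 gene share their RNA and are not replicates.

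**Figure D3:**
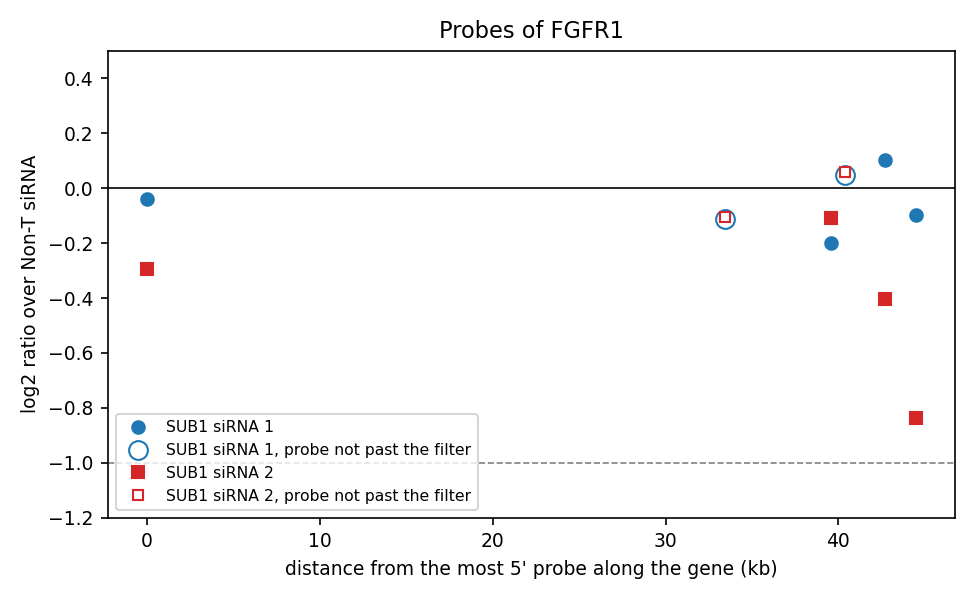
Log2 ratio over Non-T siRNA (y axis) of the 6 FGFR1 probes against their distance from the probe nearest the 5' end, in kb along the gene (x axis), with siRNA 1 as blue circles and siRNA 2 as red squares, 1 array each. Open symbols are the 2 probes that did not pass the filter, the dashed line is 2-fold lower, and the siRNA 2 value at the 3' end is the lowest at -0.84.

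MET, the receptor of hepatocyte growth factor, was close to its Non-T siRNA level with both duplexes. The bright probe A_23_P359245 (NM_000245; hg18 chr7:116225526-116225585) had log2 signals of 12.16 in Non-T siRNA and 12.12 in SUB1 siRNA 1 cells, and of 12.16 and 12.02 on the siRNA 2 array. Its log2 ratio with siRNA 1 was -0.04, within the SD of 0.087 over its 10 spots, and that with siRNA 2 was -0.13, with an SD of 0.070. With median centring these became 0.24 and 0.16, the only setting that turned the sign of their mean. The dimmer probes of MET, 2.10 kb and 2.22 kb upstream, gave -0.19 and 0.18 with siRNA 1 and -0.03 and 0.02 with siRNA 2. For the bright probe the mean was -0.09 with a standard error of 0.096 and an adjusted p of 0.633 (limma).

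AXL, the receptor of GAS6 that is known for invasion and drug resistance in carcinoma cells, had the ratios that were most alike between the duplexes among the receptors past 1.5-fold. A_23_P208389 (NM_021913; hg18 chr19:46459235-46459294) had log2 signals of 10.76 in Non-T siRNA and 10.10 in SUB1 siRNA 1 cells, and of 10.82 in Non-T siRNA and 10.28 in SUB1 siRNA 2 cells. Both Non-T siRNA signals were above both SUB1 siRNA signals. The log2 ratio was -0.66 with siRNA 1 and -0.54 with siRNA 2, which left 63.2% and 68.8% of the Non-T siRNA signal. Of all probes, 2.04% and 4.86% had a lower ratio. The mean of -0.60 had a standard error of 0.098 and an adjusted p of 0.105 (limma), which ranged from 0.0527 to 0.182 over the alternatives. AXL was lower with both duplexes under each of the 8 settings, between -0.74 and -0.43 with siRNA 1 and between -0.58 and -0.30 with siRNA 2. The settings that change only the filter or keep outlier spots gave the main ratios again.

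The ephrin receptors are tyrosine kinases whose ligands sit on neighbouring cells. EPHA2, a receptor of ephrin-A1 that is abundant in many carcinomas, had the lowest ratio of all receptor probes with siRNA 1. A_23_P149281 (NM_004431) maps to hg18 chr1:16324387-16328559, an interval of 4173 bases for a 60-base probe, so it spans an intron. Its log2 signal was 9.30 in Non-T siRNA and 8.23 in SUB1 siRNA 1 cells, and 9.23 in Non-T siRNA and 8.74 in SUB1 siRNA 2 cells. The 2 Non-T siRNA signals were again above both SUB1 siRNA signals. The log2 ratio was -1.07 with siRNA 1, a 2.10-fold lower signal, and -0.50 with siRNA 2, a 1.41-fold lower one. The mean of -0.78 had a standard error of 0.16 and an adjusted p of 0.125 (limma), between 0.0742 and 0.194 over the alternatives. EPHA2 was lower under all 8 settings, but the ratio with siRNA 1 was -0.89 with median centring and -0.98 in the authors' table, both short of 2-fold.

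EPHB4, the receptor of ephrin-B2, has 1 probe, A_23_P168443 (NM_004444; hg18 chr7:100239102-100240736, again across an intron). Its log2 signals were 7.16 in Non-T siRNA and 6.78 in SUB1 siRNA 1 cells, and 7.03 in both channels of the siRNA 2 array. The log2 ratios of EPHB4 were -0.38 with siRNA 1 and -0.002 with siRNA 2, with an adjusted p of 0.445 for their mean (limma). Over 8 settings the former lay between -0.62 and -0.28 and the latter between -0.04 and 0.05. The Non-T siRNA signal of EPHB4 was lower by 0.12 on the siRNA 2 array, close to the SD over all probes.

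The measured ratios of the duplexes were farthest apart for FGFR1, ERBB3 and EPHA2. The difference in log2 ratio, siRNA 2 minus siRNA 1, was -0.74 for FGFR1 (A_23_P301304), 0.59 for ERBB3 and 0.57 for EPHA2, and over all 25673 probes this difference had an SD of 0.31. A larger absolute difference was seen in 3.11% of all probes for FGFR1, in 5.60% for ERBB3 and in 6.10% for EPHA2. For FGFR1 the Cy3 signals of the arrays differed by 0.04 and the Cy5 signals by -0.70, and for EPHA2 by -0.06 and 0.50, so that for both genes nearly all of it was in the SUB1 siRNA channel. For ERBB3 the differences were -0.21 in Cy3 and 0.38 in Cy5, and since its Non-T siRNA signal on the siRNA 2 array was not well above background, its 0.59 and its place among all probes are measured values and not exact ones. AXL and ERBB2 (A_23_P89249) differed by 0.12 and 0.06 between the duplexes, and 59.5% and 79.1% of all probes differed by more. With 1 array per duplex these differences have no replicate and no test.

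**Figure D4:**
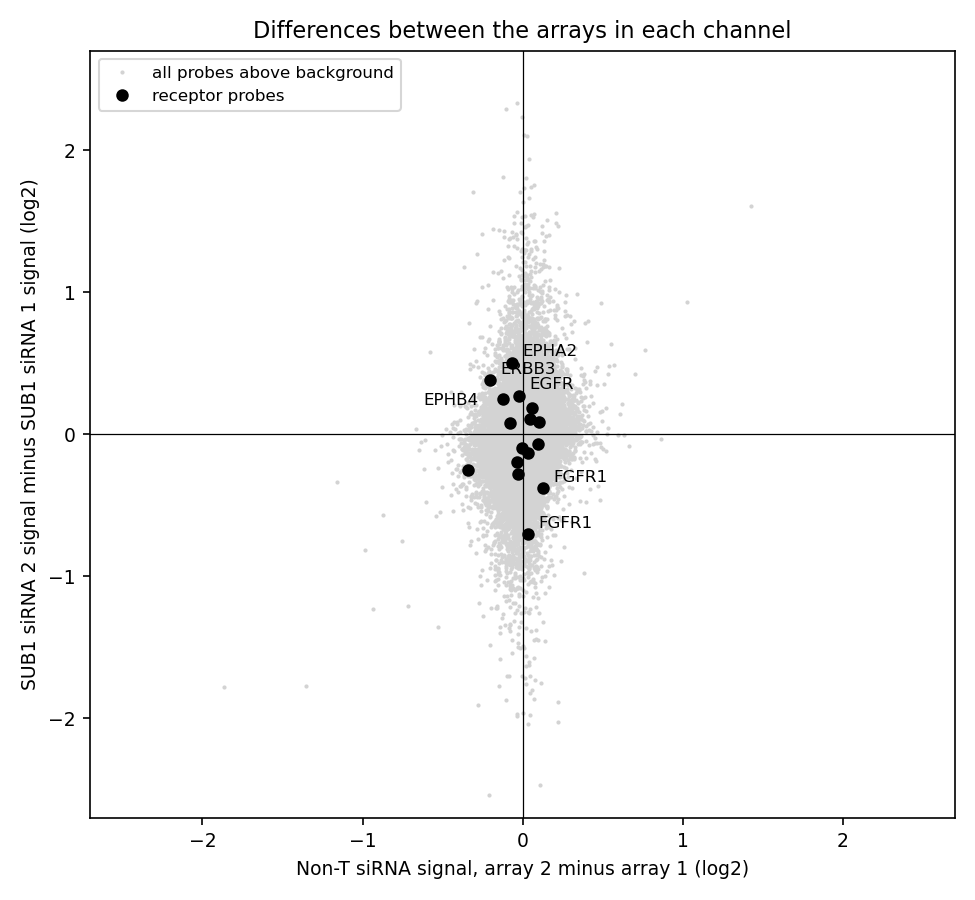
Difference in log2 signal between the arrays for Non-T siRNA (Cy3, x axis) and for SUB1 siRNA 2 minus SUB1 siRNA 1 (Cy5, y axis), with 25673 probes above background in grey and the 16 receptor probes in black. Names mark receptor probes whose ratios differed by more than 0.29, and the receptor probes lie between -0.34 and 0.13 in Cy3 and between -0.70 and 0.50 in Cy5.

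The genes around the receptors were followed with 1 probe per gene, the brightest, over 19218 genes. Of these, 0.817% were past 2-fold with siRNA 1 and 1.68% with siRNA 2, and 5.45% and 7.74% were past 1.5-fold. The median over all genes was 0.02 on each array, 45.9% of genes were lower with siRNA 1 and 46.4% with siRNA 2, and 20.9% had an unadjusted p under 0.05 in limma, against which the counts of the lists are to be read. Among 22 other receptor tyrosine kinases above background of 49 listed, the median log2 ratio was -0.03 with siRNA 1 and 0.02 with siRNA 2. With siRNA 1, ROR1 was past both thresholds, at 1.94, against -0.31 with siRNA 2. ROR1 is a receptor of the WNT5A type, and its other kept probe had 1.67 with siRNA 1 and -0.03 with siRNA 2. FGFRL1, an FGF receptor without a kinase domain, had -0.55 and -0.61 and was past 1.5-fold with siRNA 2, although its other probe had -0.07 and 0.03. TYRO3, a relative of AXL, had -0.42 and -0.33, with log2 signals of 8.69 and 8.72 in Non-T siRNA against 8.26 and 8.39 in SUB1 siRNA cells. No gene of this list passed limma's adjusted p of 0.05, and 3 had an unadjusted p under 0.05.

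Of 34 ligands, 23 were above background, with medians of -0.06 and -0.0048. HBEGF, which encodes the EGFR ligand HB-EGF, had log2 signals of 8.27 in Non-T siRNA and 7.08 in SUB1 siRNA 1 cells, and of 8.29 and 7.73 on the siRNA 2 array. Its log2 ratio was -1.19 with siRNA 1 and -0.56 with siRNA 2, with an adjusted p of 0.133 (limma), and it was the ligand past 2-fold on the siRNA 1 array. Its dimmer probe had -0.53 and -0.34. FGF1, which binds all FGF receptors, had -0.56 and -0.72, so that it was past 1.5-fold with siRNA 2. Its other kept probe had -0.30 and -0.46. EFNA1, the ephrin-A1 ligand of EPHA2, had log2 signals of 10.67 and 10.66 in Non-T siRNA, 10.54 in SUB1 siRNA 1 and 11.63 in SUB1 siRNA 2 cells. Its ratios were -0.13 and 0.97, whereas its other kept probe had -0.24 and 0.51. FGF2, chosen after its value was seen, completed the ligands past 1.5-fold, at 0.64 with siRNA 1 and 0.18 with siRNA 2. None of the ligands passed limma's adjusted p of 0.05, and 5 had an unadjusted p under 0.05.

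Adaptors and effectors downstream of the receptors, 29 of 34 above background, had medians of -0.11 with siRNA 1 and -0.15 with siRNA 2. Of the 29, 17 were lower with siRNA 1 and 24 with siRNA 2, and 13 and 17 were lower with median centring, which moved the median of all genes to 0.13 and 0.12 and left 31.5% and 32.8% of them lower. None was past 2-fold. MAP2K1, which encodes the MAP kinase kinase MEK1, had -0.87 with siRNA 1 and -0.08 with siRNA 2, and ARAF, a RAF kinase, had -0.59 and -0.37. AKT2, a kinase that acts after PI3 kinase, had 0.39 and 0.59 by its brightest probe, but its probes lay between -0.10 and 0.39 (siRNA 1) and between -0.03 and 0.59 (siRNA 2). No gene of this list passed limma's adjusted p of 0.05, and 7 had an unadjusted p under 0.05.

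Of 28 negative regulators and trafficking genes, 25 were above background, with medians of 0.03 and 0.01. NEDD4L, which encodes a ubiquitin ligase, had -0.68 and -0.44. Its 3 probes lay between -0.70 and -0.20 with siRNA 1 and between -0.52 and -0.30 with siRNA 2. ERRFI1, whose product MIG6 inhibits EGFR, had -0.46 and -0.57, but its other kept probe had -0.20 and -0.22. ADAM17, the sheddase that frees EGFR ligands from the membrane, had 0.56 and 0.67, with 3 probes between 0.31 and 0.56 with siRNA 1 and between 0.49 and 0.67 with siRNA 2. GRB10, which encodes an adaptor that restrains the insulin-type receptors, was past 1.5-fold with siRNA 1 at -0.69 and had -0.18 with siRNA 2 (chosen after its value was seen), but its other kept probe had 0.03 and 0.62. None was past 2-fold or passed limma's adjusted p of 0.05, and 8 had an unadjusted p under 0.05.

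The IGF-binding proteins, which hold IGF-1 and IGF-2 outside the cell, had unlike ratios with the duplexes, a difference that was not tested. By the brightest probe of each gene, 3 of the 5 genes above background of 7 listed were past 2-fold with siRNA 1. With siRNA 2 none was past 1.5-fold by that probe, but another probe of IGFBP5 was past 2-fold, at -1.04. IGFBP3 had log2 signals of 11.00 in Non-T siRNA and 9.59 in SUB1 siRNA 1 cells, but 10.98 in Non-T siRNA and 11.30 in SUB1 siRNA 2 cells, with ratios of -1.40 and 0.32. Its other kept probe had -0.94 and -0.11, so that the sign with siRNA 2 turned between probes. IGFBP4 had log2 signals of 9.86 in Non-T siRNA against 8.39 in SUB1 siRNA 1 cells, and of 9.79 against 9.21 for siRNA 2, with ratios of -1.46 and -0.58. IGFBP5 had ratios of 1.62 with siRNA 1 and -0.33 with siRNA 2, and its probes lay between 0.85 and 1.62 and between -1.04 and -0.33. IGFBP6, chosen after its value was seen, had -0.99 and 0.02. The median of the list was -0.99 with siRNA 1 and 0.02 with siRNA 2. None of the 5 passed limma's adjusted p of 0.05, and 1 had an unadjusted p under 0.05.

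**Figure D5:**
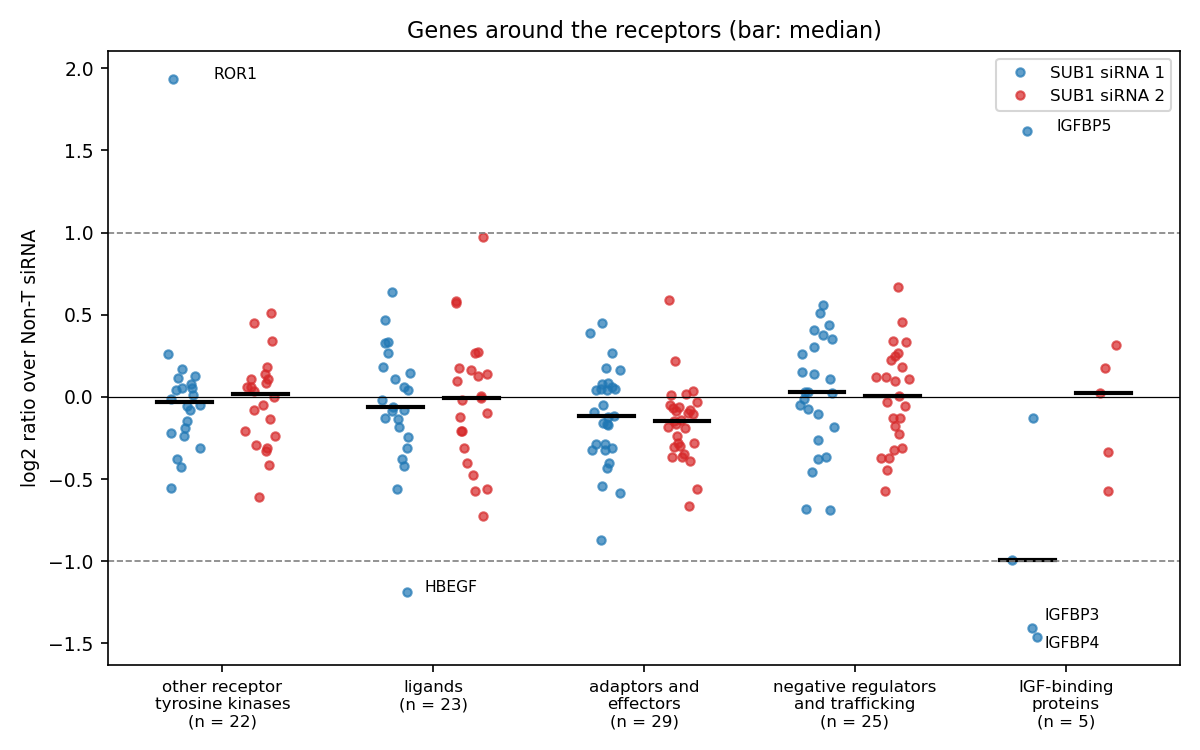
Log2 ratio over Non-T siRNA (y axis) of the genes in 5 lists around the receptors (x axis, n genes above background), with siRNA 1 in blue and siRNA 2 in red, 1 point per gene and array and a bar at the median. Names mark genes whose brightest probe was past 2-fold (dashed lines), which were ROR1, HBEGF, IGFBP3, IGFBP4 and IGFBP5 with siRNA 1 and none with siRNA 2.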

How the data were processed

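RNA of Non-T siRNA (Cy3) and SUB1 siRNA 1 or 2 (Cy5) PC3 cells was compared on 2 Agilent arrays. The authors scanned the slide with Feature Extraction 9.5.1.1 (the version per the file headers) and deposited spot intensity and local background in both channels. They also deposited a table of loess-normalized log2 ratios per probe, which served as an alternative. Its scale and direction (Cy5 over Cy3) were read from its fit to the scanner values, with r of 0.924 and 0.942 and medians of -0.00545 and -0.00689. The software's own ratio and p-value columns were not used.

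Mean spot intensities were background-corrected by normexp (offset 50), control spots were dropped, and a loess fit (span 0.3) on each array normalized the ratios, with limma 3.58.1 in R 4.3.3. Channel signals were scaled by Aquantile. Outlier-flagged spots were left out (112 and 100) and spots of a probe averaged. A probe passed the filter if, on both arrays, 1 or more channels had a share of spots well above background of at least 0.5. Folds against a dim channel are the bright signal over the higher of the dim probe's signal and the lowest signal well above background. Other settings gave smaller ratios for some of them, so they are not minimum folds. The mean ratio was tested against 0 with lmFit and eBayes. The 2-fold rule follows the methods of the paper, which used no test, and 2-fold and 1.5-fold counts are per array. The number of arrays limits the precision.

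Members, lists and alternatives were chosen with earlier results of these data known. Named genes were all member probes, SUB1, the markers and, per list, the 3 with the largest absolute mean ratio and any past 2-fold. Probe coordinates are those of the files (hg18). Probes were named through a RefSeq gene table where possible, and otherwise as in the files. The fit was tested on simulated data. Protein sequences and an annotation of hg18 were not used here. Some genes of the lists and markers are not reported here.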

Additional observations from a re-analysis of the deposited data

Results flagged for a closer look

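ERBB3 (A_23_P349416) had a negative ratio with siRNA 1 and a positive one with siRNA 2, and the difference in log2 ratio, siRNA 2 minus siRNA 1, was 0.587. FGFR1 (A_23_P219105) had a positive ratio with siRNA 1 and a negative one with siRNA 2, a difference of -0.507. What marked them is that the only array of one duplex went one way and that of the other duplex the opposite way, and the difference was not tested. On the siRNA 2 array, a channel of each probe was not well above background, Non-T siRNA for ERBB3 and SUB1 siRNA 2 for FGFR1.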

How the results depend on the processing

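Of 128 means of a receptor probe under an alternative that kept both arrays, 124 kept their sign and 4 turned. The side of the adjusted p threshold never changed, since no receptor probe passed it under any setting. ERBB2 (A_24_P284420) became -0.013 with Feature Extraction's processed signals, ERBB3 became -0.0928 both with those signals and in the authors' table, and MET (A_23_P359245) became 0.20 with median centring. The cause of these 4 turns was not tested. Many of the 124 had no room to turn, so their number does not measure how firm the signs are. Settings that change only the filter or take the brightest probe repeat the main ratio, and keeping outlier spots repeats it or nearly so. Averaging the kept probes of a gene also repeats it where a receptor kept no other probe. With an array left out, the value is the ratio of the remaining array, with no test.

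The count of receptor probes past 2-fold moved with siRNA 1 from 1 to 0 with median centring and in the authors' table and to 2 at 1.5-fold, and with siRNA 2 from 0 to 2 with Feature Extraction's signals (both of FGFR1, 1 of them with a dim channel) and to 1 at 1.5-fold. Those signals gave 1254 and 1840 probes in all past 2-fold and the 1.5-fold threshold 1317 and 1830, in place of 193 and 372. With Feature Extraction's signals the counts for siRNA 1 and siRNA 2 were 2 and 3 for other receptor tyrosine kinases, 2 and 3 for ligands, 1 and 2 for adaptors and effectors, and 1 for negative regulators with siRNA 2. Ligands were 0 with siRNA 1 when probes of a gene were averaged and 1 with siRNA 2 under median centring. At 1.5-fold the counts were 1 for other receptor kinases with siRNA 2, 2 and 2 for ligands, 2 and 2 for adaptors and effectors, and 2 and 1 for negative regulators.

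The share of higher probes among those past 2-fold for siRNA 1 and siRNA 2 was 25.9% and 36.3%, beside 70.4% and 72.9% (median centring), 66.4% and 63.3% (Feature Extraction's signals) or 36.6% and 48.2% (the authors' table). limma called 3 probes of all, 0 with Feature Extraction's signals (5136 at an unadjusted p under 0.05) or the authors' table (5548), and 452 of 40999 without the filter, none of them a receptor probe. No paired analysis was possible because no second group shares replicate numbers with the arrays, and the ratio within an array, as tested, already pairs the treatments. Both arrays lay on 1 slide, so it could not be a block. On the siRNA 2 array, dim channels leave ERBB3 and the FGFR1 probes A_23_P219105 and A_24_P4171 without exact folds. The second ERBB2 probe has a dim channel on both arrays.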
